A study of Mus musculus with 16 samples.

Results

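The regions described here were stretches of chromatin called as enriched for acetylation of histone H4 at lysine 5 (H4K5Ac). They were called in differentiated MC3T3-E1 cells but not in undifferentiated ones, which does not show that the latter lacked the mark. They were the regions of the differentiated H4K5Ac list, on chromosomes 1 to 19 of mm9, that shared not even 1 bp with a region of the undifferentiated list. By this rule 1555 of 32786 differentiated regions were gained, which was 4.74% (95% interval 4.52 to 4.98). The other 31231 regions of the differentiated list are called kept, and the 11629 of 40747 undifferentiated regions with no differentiated partner are called lost. MC3T3-E1 is a pre-osteoblast line from mouse calvaria that lays down mineralised matrix when given ascorbic acid and a phosphate donor.

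Chromatin immunoprecipitation followed by sequencing (ChIP-seq) was done with 7 antibodies in each of 2 states, and the deposited data were 14 lists of enriched regions, 1 for each antibody and state. The undifferentiated cells grew in complete medium, and the differentiated cells received ascorbic acid at 50 µg/mL together with 10 mM glycerol-2-phosphate for 15 days. Per the labels, cells of both states were at passage 5 to 12 and received ethanol vehicle for 3 h before fixation, and matrix was removed from the differentiated cultures by homogenisation and a sucrose spin. The antibodies were against H4K5Ac, H3K9Ac, H3K4me1, H3K4me3, H3K36me3 and the transcription factors RUNX2 and C/EBPβ. Each list merged peaks of replicates that were not seen separately, so no difference between the states had a replicate check, and no p-value is given. Intervals are exact Clopper-Pearson intervals for shares and Newcombe intervals for differences of shares, and both cover counting error only. Peak lists carry no read counts, so depth is unknown, and a difference of depth or of enrichment between the 2 immunoprecipitations cannot be told apart from a difference of the cells.

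H4K5Ac is laid down by acetyltransferases such as p300, CBP and the TIP60 and HBO1 complexes. It marks active promoters and enhancers. H3K4me1 marks enhancers, whether active or only primed. H3K4me3 lies at promoters in use, H3K9Ac lies there and also away from promoters, and H3K36me3 is laid along genes as they are transcribed. RUNX2 is the runt-domain factor required for osteoblast formation, and C/EBPβ is a basic leucine zipper factor active in both osteoblast and adipocyte precursors.

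Among 10 short motifs searched, the share of regions with a match differed most between gained and kept regions for a palindromic E-box, CAGCTG, the core site of many basic helix-loop-helix factors. The densest 200-bp stretches of this E-box in the gained regions at 3 genes named below are shown first, on the plus strand of mm9, with the E-box in capitals. The Itpr2 stretch held 4 copies, and the Steap3 and Zfp423 stretches held 3 copies each. All 3 lay in introns.
Itpr2, chr6:146429518-146429717: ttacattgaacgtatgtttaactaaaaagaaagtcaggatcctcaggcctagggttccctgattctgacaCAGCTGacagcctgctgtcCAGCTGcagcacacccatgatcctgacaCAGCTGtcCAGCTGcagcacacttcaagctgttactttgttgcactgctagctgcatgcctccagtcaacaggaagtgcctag
Steap3, chr1:122120329-122120528: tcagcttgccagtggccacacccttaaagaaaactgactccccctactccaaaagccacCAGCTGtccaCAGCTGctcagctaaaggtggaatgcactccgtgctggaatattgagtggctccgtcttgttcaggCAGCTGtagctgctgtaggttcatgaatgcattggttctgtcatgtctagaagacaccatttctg
Zfp423, chr8:90262021-90262220: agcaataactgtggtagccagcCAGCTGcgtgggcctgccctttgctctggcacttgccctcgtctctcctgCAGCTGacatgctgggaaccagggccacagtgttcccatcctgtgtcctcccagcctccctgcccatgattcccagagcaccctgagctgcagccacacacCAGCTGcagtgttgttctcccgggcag

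Factor peaks inside gained regions are shown next, because they are the places where RUNX2 or C/EBPβ was measured within them. Each is a deposited 201-bp peak of the differentiated state with no undifferentiated partner, and the capitals mark the motif searched, TGTGGTT for RUNX2 or TTGCNNAA for C/EBPβ, on either strand. The Gmds, Fggy and Slc13a3 peaks were RUNX2 peaks.
Gmds, chr13:32637370-32637570: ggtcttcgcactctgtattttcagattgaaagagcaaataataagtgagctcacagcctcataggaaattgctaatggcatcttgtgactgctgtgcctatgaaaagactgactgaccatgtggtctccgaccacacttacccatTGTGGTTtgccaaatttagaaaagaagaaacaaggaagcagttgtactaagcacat
Fggy, chr4:95444606-95444806: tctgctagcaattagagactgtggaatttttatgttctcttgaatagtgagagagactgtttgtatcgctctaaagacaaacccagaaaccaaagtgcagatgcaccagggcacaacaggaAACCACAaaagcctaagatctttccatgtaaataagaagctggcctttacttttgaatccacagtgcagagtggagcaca
Slc13a3, chr2:165233492-165233692: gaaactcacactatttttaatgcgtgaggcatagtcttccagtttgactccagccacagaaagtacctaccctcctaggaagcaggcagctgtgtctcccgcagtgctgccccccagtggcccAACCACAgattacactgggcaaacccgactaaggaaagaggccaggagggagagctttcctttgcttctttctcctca
The Steap3, Klf13 and Gem peaks were C/EBPβ peaks.
Steap3, chr1:122133132-122133332: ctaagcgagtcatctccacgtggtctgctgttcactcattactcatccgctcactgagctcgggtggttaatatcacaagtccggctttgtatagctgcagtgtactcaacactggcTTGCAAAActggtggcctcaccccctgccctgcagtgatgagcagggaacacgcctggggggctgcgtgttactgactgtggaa
Klf13, chr7:71135069-71135269: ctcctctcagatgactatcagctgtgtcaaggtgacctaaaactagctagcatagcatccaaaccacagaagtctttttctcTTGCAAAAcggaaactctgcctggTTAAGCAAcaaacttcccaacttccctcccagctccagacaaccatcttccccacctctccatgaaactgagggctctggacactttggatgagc
Gem, chr4:11600042-11600242: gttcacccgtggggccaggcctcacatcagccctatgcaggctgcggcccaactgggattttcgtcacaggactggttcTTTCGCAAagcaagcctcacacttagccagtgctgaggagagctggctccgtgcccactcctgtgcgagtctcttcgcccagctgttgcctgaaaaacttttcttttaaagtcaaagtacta
The Gmds, Klf13 and Gem peaks lay between genes, and the Fggy, Slc13a3 and Steap3 peaks lay in introns of those genes. Within each factor, these were the highest-scoring gained regions with such a peak and motif.

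Gained regions were short and low in score. These properties belong to the list the rule used and are given as a description only. Their median width was 2106 bp, from 1005 to 46169 bp, against 4617 bp for kept regions and 2529 bp for lost regions. The median of the authors' region score, a value used here only within 1 list, was 42.05 for gained and 204.55 for kept regions. Of the gained regions, 1241 (79.8%) lay in the lowest of 4 equally large score groups of the differentiated list, where 15.1% of regions were gained, and 16 lay in the highest, where 0.195% were. The nearest undifferentiated H4K5Ac region was 8116 bp away at the median, 152 bp at the least and 702839 bp at the most. For 1039 gained regions (66.8%) it was over 5 kb away. Just inside the rule, 28 gained regions had an undifferentiated region within 1 kb, with a median width of 2349.5 bp. Just outside it, 5 kept regions were covered for less than 10% of their length, with a median width of 23549 bp and a smallest overlap of 150 bp.

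**Figure D1:**
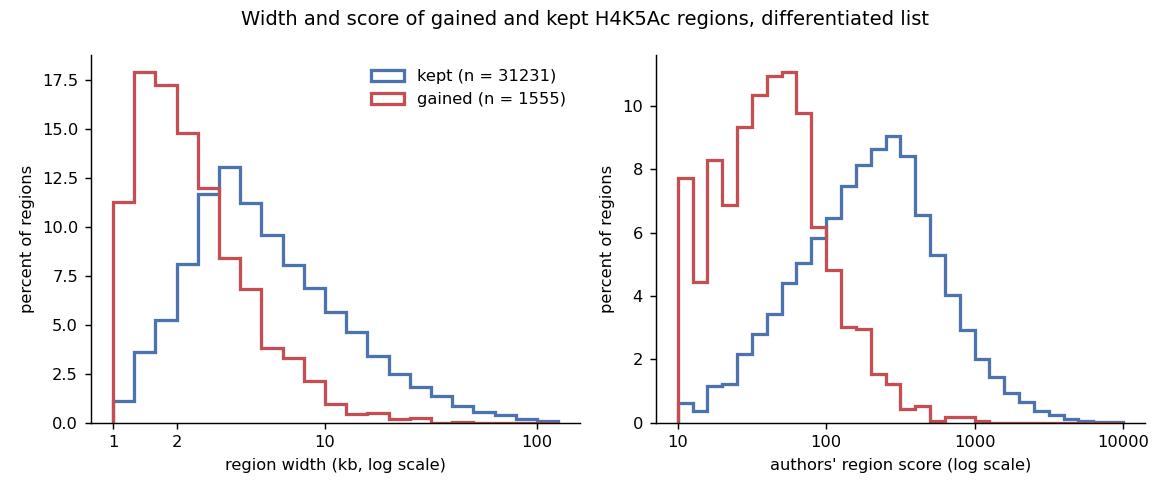
Distribution of region width in kb (left, log scale) and of the authors' score (right, log scale) for gained and kept regions of the differentiated H4K5Ac list, as percent of regions in each set. Gained regions sit lower on both axes, with medians of 2106 bp and 42.05 against 4617 bp and 204.55.

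The strongest gained regions were wide domains. The highest-scoring and widest one spanned 46169 bp at Steap3, which encodes a ferrireductase of the endosome, at chr1:122117826-122163994, with a score of 1031. It overlapped a Steap3 promoter, carried H3K4me1 in both states, and held an H3K9Ac region and a C/EBPβ peak in the differentiated state only. A 27759-bp region in an intron of Lmx1b, a LIM homeodomain factor of limb patterning, scored 794.85 and overlapped 2 H3K4me1 regions after differentiation and none before. The 20180-bp region nearest Psmg1, a proteasome assembly chaperone, scored 824 and likewise had H3K4me1 only afterwards. The others of the 10 highest scores were assigned to Actbl2, Nkd2 (an intracellular Wnt antagonist), Il33 (an alarmin cytokine), Cpeb4 (a regulator of mRNA translation), Fam19a5, Megf10 and Gm6994, and all of these had H3K4me1 in both states. The 10 widest gained regions added Ehf (27895 bp), Mrps6 (21086 bp) and Papss1 (19643 bp), and of these 10 only the Steap3 region held H3K9Ac afterwards.

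Most gained regions lay away from promoters. A region overlapping 1 kb to either side of a transcription start counted as a promoter region, and the others were placed by their centre. Of the gained regions, 247 (15.9%, interval 14.1 to 17.8) were at promoters, 638 (41.0%) in introns, 616 (39.6%) between genes and 54 (3.47%) in exons. The promoter share was 35.8% for kept and 6.98% for lost regions, 19.9 percentage points below kept (17.9 to 21.7 below) and 8.90 points above lost (7.10 to 10.9). Among regions of at most 2 kb, gained regions were at promoters in 15.4%, kept in 11.7% and lost in 6.25%. There the gained share was 3.66 points above the kept share (0.95 to 6.67). In the lowest of the 4 score groups the difference from kept was 4.22 points (2.13 to 6.50). Within the central 1000 bp of regions of any width it was -12.9 points (-14.6 to -11.1). The parts of width and score in this comparison were not tested. The share of differentiated regions that were gained ranged over chromosomes from 3.03% to 6.35%, with a median of 4.91%.

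Some gained regions lay close together, although no test of clustering was made. When gained regions with centres up to 100 kb apart were joined into runs, 980 stood alone, 174 runs held 2, 44 held 3 and 21 held 4 or more. The run with most members had 8 gained regions over 228 kb upstream of and within Plcg2, the phospholipase C gamma 2 gene, at chr8:119825001-120053332. It also contained 4 kept and 3 lost regions. Another run had 5 gained regions over 232 kb at Zfp423, which encodes a zinc finger factor of preadipocyte commitment and BMP signalling, with no lost region in the span. A further run had 5 over 196 kb at Nr3c2, the mineralocorticoid receptor gene, of which 4 acquired H3K4me1.

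H3K4me1, measured with another antibody and not used by the rule, was the mark most often found in gained regions. It was already present before differentiation in 936 of 1555 gained regions (60.2%, interval 57.7 to 62.6), against 94.9% of kept and 62.0% of lost regions. After differentiation 1431 gained regions (92.0%, 90.6 to 93.3) carried it, against 98.7% of kept and 63.4% of lost. Thus 924 gained regions had H3K4me1 in both states, 507 only afterwards, 12 only before and 112 in neither. Of the 619 without H3K4me1 before, 81.9% (78.6 to 84.9) had it after differentiation. The same share was 80.7% of such kept regions and 33.6% of such lost regions. In this share gained regions stood near kept regions and apart from lost regions. Among regions with H3K4me1 afterwards, it was absent before in 507 of 1431 gained, 1279 of 30827 kept and 1482 of 7377 lost regions. On that base the gained share was higher than the kept and the lost share. Over the whole H3K4me1 list, 17.3% of differentiated regions had no undifferentiated partner. The 112 regions without H3K4me1 had a median score of 24.2, and 56.25% of them overlapped H3K36me3, against 24.9% of those with H3K4me1 in both states.

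**Figure D2:**
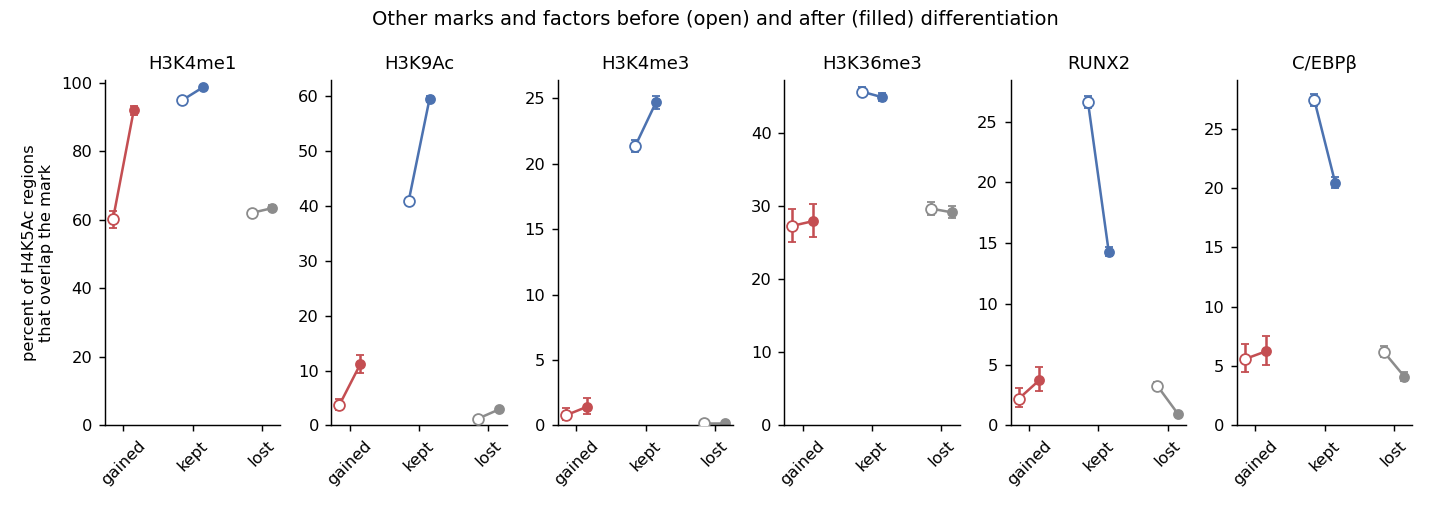
Share of gained, kept and lost H4K5Ac regions (percent) that overlapped a region of 6 other antibodies before (open circles) and after (filled circles) differentiation, each panel with its own axis and bars for 95% Clopper-Pearson intervals. In gained regions H3K4me1 went from 60.2% to 92.0% and H3K9Ac from 3.73% to 11.1%, while RUNX2 went from 2.19% to 3.73% and was lower afterwards in kept and lost regions.

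Around the centre of gained regions, H3K4me1 covered 55.7% of centre positions before and 90.6% after differentiation. In the plot of H3K4me1 and H3K9Ac by distance, the difference between the states was smaller away from the centre, and 5 kb downstream in genome coordinates H3K4me1 was at 18.4% before and 24.0% after.

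**Figure D3:**
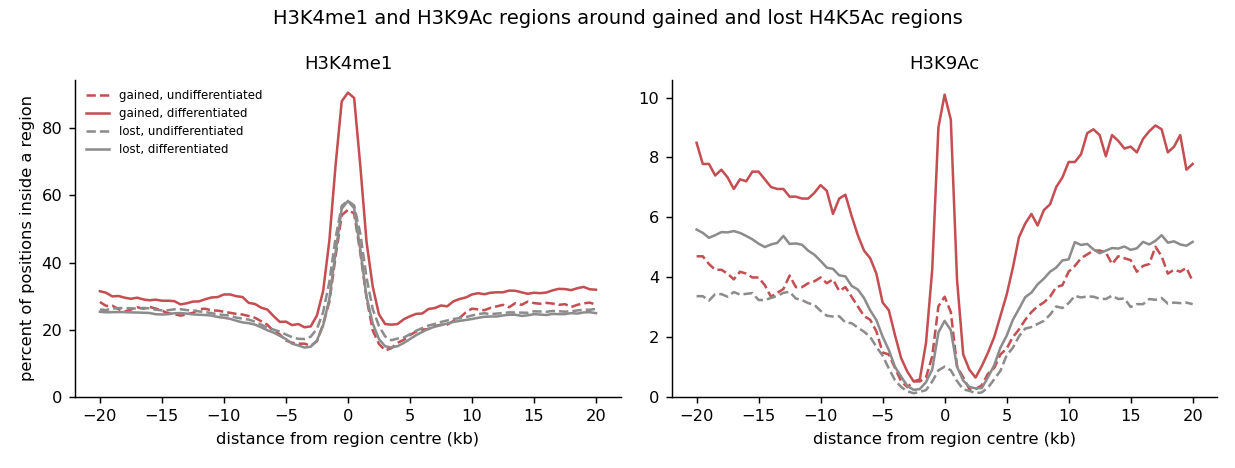
Percent of gained and lost H4K5Ac regions in which the position at a given distance from the region centre (kb) lay inside an H3K4me1 (left) or H3K9Ac (right) region, dashed before and solid after differentiation. At the centre of gained regions H3K4me1 was at 55.7% before and 90.6% after, and H3K9Ac at 3.34% and 10.1%.

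H3K9Ac was found in few gained regions. It overlapped 58 of them (3.73%) before and 173 (11.1%, interval 9.60 to 12.8) after differentiation, against 40.9% and 59.5% of kept and 1.25% and 2.91% of lost regions. The whole H3K9Ac list was longer in the differentiated state, 23174 against 14596 regions, and 38.8% of its differentiated regions had no undifferentiated partner. Among regions with H3K9Ac afterwards, it was absent before in 117 of 173 gained and 5876 of 18578 kept regions, a higher share in gained regions. The base of regions without H3K9Ac before gave the other order. Of the 1497 such gained regions, 7.82% had it afterwards, against 31.9% of such kept regions. The share with H3K9Ac afterwards was also lower in gained than in kept regions at like width. Among regions of at most 2 kb, 12.7% of gained and 25.0% of kept regions carried H3K9Ac afterwards. Within the lowest of the 4 score groups the shares were 11.1% and 19.9%. By distance to the nearest undifferentiated H4K5Ac region, H3K9Ac was present afterwards in 10.7% of the 28 gained regions within 1 kb, 3.67% of those 1 to 2 kb away, 10.3% of those 5 to 10 kb away and 28.1% of the 32 that were over 100 kb away. No trend test was made.

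Promoters held most of the H3K9Ac. Of the 247 gained promoter regions, 53 (21.5%) had H3K9Ac before and 110 (44.5%) after differentiation. In introns the counts were 1 before and 27 after of 638, and between genes 4 and 34 of 616. H3K4me3 overlapped 12 gained regions before and 22 after, and 20 of those 22 were promoter regions. Over the whole H3K4me3 list 17.9% of differentiated regions had no undifferentiated partner. The 11 gained regions with H3K4me3 only afterwards included the promoters of Msx1, a homeobox factor of craniofacial bone, of Ralgps2, Kbtbd8, Ppm1h, Iqgap2, Enox1, Ankrd33b and Strbp, and of Dact2, a modulator of Wnt and TGF-β signalling. The Msx1 region, chr5:38214414-38216176, had H3K9Ac in both states and H3K4me1 only afterwards. A gained region at Gm10715, chr9:3035184-3038579, overlapped H3K4me1, H3K9Ac, H3K4me3 and H3K36me3 in both states. It lay near the start of the assembled chromosome, and whether its signal was specific to any antibody was not tested.

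H3K36me3, the mark of transcribed gene bodies, overlapped 424 gained regions (27.3%) before and 434 (27.9%) after differentiation, an almost equal share. Of the whole H3K36me3 list, 11.9% of differentiated regions had no undifferentiated partner. Kept regions were at 45.6% and 44.8%, and lost regions at 29.6% and 29.1%.

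RUNX2 peaks were few in gained regions and more numerous there after differentiation than before. The RUNX2 list shortened from 12567 to 6231 peaks on differentiation. Gained regions held 34 RUNX2 peaks before and 59 after, a ratio of 1.74, whereas kept regions held 11778 and 5851, a ratio of 0.497, and lost regions 401 and 111, a ratio of 0.277. Of the 59 peaks present afterwards, 42 (71.2%, interval 57.9 to 82.2) had no undifferentiated partner, against 24.2% of those in kept regions and 26.1% of the whole list. The difference from kept regions was 47.0 points (34.4 to 57.0). Of the 34 earlier peaks in gained regions, 17 had no differentiated partner (50%, 32.4 to 67.6), against 62.4% in kept regions, and the interval of this difference, -28.4 to 3.52 points, included 0. Counted by region, RUNX2 was acquired by 2.70% of the gained regions without it before and by 3.12% of such kept regions. By region, 58 gained regions (3.73%) held a RUNX2 peak afterwards, against 14.3% of the wider kept regions. The excess over the undifferentiated state lay in wide regions: of the gained regions up to 2 kb, 13 held RUNX2 before and 7 after. In kept regions of that width the numbers were 112 and 42. Gained regions in the lowest of the 4 score groups held RUNX2 in 25 cases before and 28 after, and kept regions of that group in 343 and 137.

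The gained regions with RUNX2 afterwards were wider than the rest, with a median of 3632 bp, and 57 of the 58 carried H3K4me1. The highest in score were at Il33, D6Ertd527e, Gmds, Pitpnm2, Fggy, Gm355, Lyst, Otub1, Zfp704 and Gm10715. In 7 of these 10 no undifferentiated RUNX2 peak lay in the region, and the Il33, Pitpnm2 and Lyst regions had 1 in both states. The 9574-bp region 205 kb upstream of Gmds, a GDP-mannose dehydratase gene, held the first of the RUNX2 sequences printed above, and the 10872-bp region at the start of Fggy held the next.

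C/EBPβ showed a smaller shift. Its list shortened from 15397 to 10651 peaks, and gained regions held 92 peaks before and 103 after, a ratio of 1.12 against 0.671 in kept and 0.656 in lost regions. Of the 103 peaks, 52 (50.5%, interval 40.5 to 60.5) had no undifferentiated partner, against 34.7% in kept regions and 37.9% of the whole list, 15.8 points above kept (6.27 to 25.3). By region, 97 gained regions (6.24%) held C/EBPβ afterwards and 87 (5.59%) before. The direction was the other way in 3 narrower counts: 28 regions before and 26 after among those up to 2 kb, 57 and 49 in the lowest of the 4 score groups, and 63 and 59 within the central 1000 bp. The highest-scoring were at Steap3, Cpeb4, Fam19a5, Slc41a2, Klf13, Gem, Gm6994, Slc35f5, Pitpnm2 and Ehd3. The Steap3, Klf13, Gem, Gm6994, Slc35f5, Pitpnm2 and Ehd3 regions had no undifferentiated C/EBPβ peak. Klf13 encodes a Krüppel-like factor and Gem a small GTPase.

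Both factors were present afterwards in 14 gained regions, among them regions at Pitpnm2, Zfp704, Dennd3, Plcg2 and Usp2. The Plcg2 region, chr8:120048229-120053332, lay in an intron, had neither factor, no H3K4me1 and no H3K9Ac before, and had all 4 afterwards. The nearest undifferentiated H4K5Ac region was 48959 bp from it. The remaining 1414 gained regions (90.9%) held neither factor, and 11.03% of them carried H3K9Ac afterwards, against 12.1% of the 141 with either factor.

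The motif content of the factor peaks was like that of the whole lists. TGTGGTT was present in 18 of the 59 differentiated RUNX2 peaks in gained regions (30.5%, interval 19.2 to 43.9), against 33.8% of those in kept regions and 34.8% of all. TTGCNNAA was present in 42 of 103 C/EBPβ peaks (40.8%, 31.2 to 50.9), against 41.7% and 44.6%. These intervals are wide, and similar shares do not show that the peaks were bound alike.

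Sequence was compared over the 1000 bp around each region centre with 10 short motifs, searched on both strands. Among these 10, the largest difference between gained and kept regions was in the E-box CAGCTG, and no search over all short sequences was made. It was present in 849 gained windows (54.6%, interval 52.1 to 57.1), 41.0% of kept and 34.8% of lost windows. The difference from kept was 13.6 points (11.04 to 16.1), and 12.1 points (8.02 to 16.0) among regions up to 2 kb. Windows with 3 or more copies made up 5.21% of gained, 2.45% of kept and 1.44% of lost windows. The share was 54.4% in gained regions away from promoters and 55.9% at promoters. It was 54.7% where H3K4me1 was in both states, 55.4% where it was acquired and 50.8% where it was absent afterwards.

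Gained windows were also richer in G and C, with a median of 49.3% against 46.4% in kept and 42.0% in lost windows, so the E-box was compared at like base composition. In windows of 45 to 50% GC it was present in 56.8% of gained and 46.4% of kept windows, a difference of 10.3 points (5.84 to 14.7). From 50 to 55% GC the difference was 13.3 points (8.42 to 17.95), and from 40 to 45% it was 2.21 points, with an interval of -3.58 to 8.35 that included 0. For 7 other palindromes with the same letters in another order, the difference in windows of 45 to 50% GC was 3.02 points for TGGCCA, 2.80 points for CTGCAG, 1.59 points for AGGCCT, 0.0280 points for CCTAGG, -0.925 points for GGATCC, -1.25 points for GAGCTC and -1.96 points for CCATGG. All 7 intervals included 0. These 7 were not all of the palindromes with these letters, and the others were not compared. Over windows of any composition TGGCCA differed by 10.1 points and CTGCAG by 8.25. These comparisons by composition and letter order were chosen after the E-box value was seen.

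E-box density was higher near the centre of gained regions than away from it. It was 0.887 copies per kb within 200 bp of the centre and 0.613 per kb at 2 to 3 kb, a ratio of 1.45. The ratio was 1.14 in kept and 1.04 in lost regions. The rearranged palindrome CTGCAG was also denser there, with a ratio of 1.29 in gained and 1.22 in kept regions. Median width was 2106 bp for gained and 4617 bp for kept regions, so the zone at 2 to 3 kb lay inside kept regions more often. No ratio was taken at like width.

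**Figure D4:**
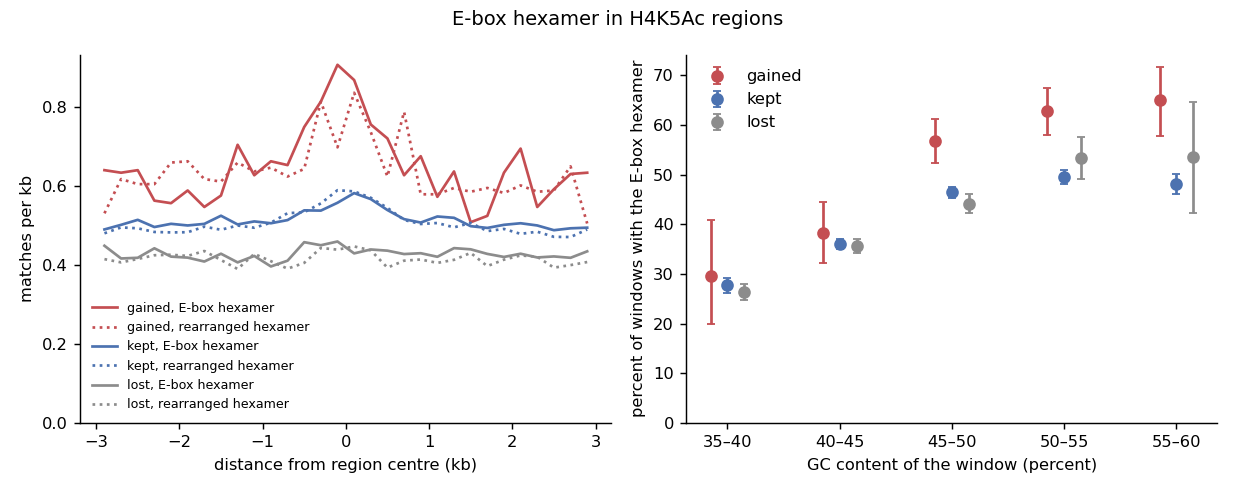
Left, copies per kb of the E-box hexamer (solid) and of the rearranged palindrome (dotted) by distance from the centre of gained, kept and lost H4K5Ac regions. Right, percent of 1000-bp windows with the E-box by GC content (percent), with 95% Clopper-Pearson intervals. Gained windows lay above kept windows from 45% GC upward, by 10.3 points at 45 to 50% GC.

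The other motifs differed less, or in the other direction. The homeobox core TAATTA was present in 15.7% of gained, 21.5% of kept and 30.3% of lost windows, an order that was the reverse of the order of GC content. The AP-1 site TGANTCA was present in 29.2%, 30.9% and 36.8%, and among regions up to 2 kb in 30.8%, 38.8% and 39.6%. The RUNX site TGTGGTT was present in 26.2% of gained and 23.0% of kept windows, a difference of 3.24 points (1.06 to 5.53) that was -0.48 points among regions up to 2 kb. The C/EBP site TTGCNNAA was present in 34.1% and 35.3%, with an interval of the difference that included 0. A match is a description of sequence and not a measured binding site.

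Regions were assigned to the nearest start of a protein-coding gene within 100 kb. By this assignment 1340 gained regions fell to 1145 of 21419 genes (5.35%), with 992 genes having 1, 122 having 2 and 31 having 3 or more. Lost regions fell to 5130 genes, 24% of all genes, and all of these were among the 13232 genes with any H4K5Ac region. Of the 1145 genes with a gained region, 473 (41.3%) also had a lost region. In 172 genes no undifferentiated H4K5Ac region had been assigned at all. Of all genes 0.714% had 2 or more. The genes with most gained regions were Kif6, a kinesin gene, and Plcg2, with 5 each. Itpr2 (an inositol trisphosphate receptor that releases calcium from the endoplasmic reticulum), Btla, Zfp423, Zbtb7c, Rps2-ps6, Bcas3 and Nr3c2 had 4 each. Ehf, D6Ertd527e, Pag1, Fancc, Scube3 and Capzb had 3. These genes were picked by their gained regions, so the counts that follow are a description only. H4K5Ac regions assigned to Zfp423 numbered 5 before and 9 after differentiation, and those assigned to Ehf, an epithelial ETS factor gene, 1 and 4. At Itpr2 they numbered 19 and 17, at Bcas3 19 and 15, and at Zbtb7c 15 and 15. At Btla, which encodes a lymphocyte receptor, they numbered 1 and 4, with no H3K9Ac region, RUNX2 or C/EBPβ peak in either state.

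Bone matrix genes had gained regions in 4 of 26 measured members (15.4%, interval 4.36 to 34.9), Ibsp, Mepe, Col5a1 and Ank. Lost regions fell to 6 members, 10 regions against 5 gained. The share of members with a gained region was above the 5.35% of all genes, but most genes of the lists carried H4K5Ac. Of all genes with any H4K5Ac region, 8.65% had a gained one. Counted by region, 5 of the 63 differentiated H4K5Ac regions of these matrix genes were gained (7.94%, 2.63 to 17.6), an interval that included the 4.75% of all assigned regions. Ibsp encodes bone sialoprotein, which nucleates hydroxyapatite, and Mepe encodes a phosphoglycoprotein of osteocytes, and both lie side by side on chromosome 5. Their 3 gained regions lay at chr5:104689554-104697123, 34.9 kb upstream of Ibsp and 7570 bp wide, at chr5:104705277-104707334, 21.9 kb upstream, and at chr5:104740555-104744702, between Ibsp and Mepe and 11.7 kb upstream of Mepe. All 3 carried H3K4me1 in both states and held neither factor and no H3K9Ac. H3K36me3 covered 0% of the Ibsp body before and 86.5% after differentiation, and 0% of Mepe in both states. Ank exports pyrophosphate, an inhibitor of mineral growth, and Col5a1 encodes a fibrillar collagen chain.

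Osteoblast transcription factor genes had gained regions in 4 of 33 members, Msx1, Runx3, Tcf7 and Tead1, and lost regions in 18. Of their 111 differentiated regions 5 were gained (4.50%, interval 1.48 to 10.2), a share near the 4.75% of all assigned regions, and the members are given as a description. Msx1 had no other H4K5Ac region in either state, and H3K36me3 covered 37.5% of its body before and 25.2% after. Tcf7, a nuclear effector of Wnt signalling, had 1 gained region of 1813 bp, and H3K36me3 covered 34.2% of its body before and 81.6% after. Runx3, a relative of RUNX2, had 1 gained region 92.8 kb upstream, and its body coverage was 49.0% and 94.3%. Tead1, a Hippo pathway factor, had 2 gained regions, and its coverage was 70.8% and 57.5%.

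Wnt pathway genes had gained regions in 6 of 27 members (22.2%, interval 8.62 to 42.3) and lost regions in 13. Among the ligands, Wnt5a had a gained region of 2540 bp and Wnt5b one of 1041 bp over its promoter, where H3K9Ac was present only afterwards. Among receptors, Ror2, which binds Wnt5a, had gained regions of 12938 and 1027 bp. Of the secreted inhibitors, Dkk2 and Wif1 had 1 each. Ctnnb1, the β-catenin gene, had 2, at 29.1 kb upstream of 1 annotated start and 32.7 kb downstream of another. Each distance was to the nearest start of the gene. Of the 94 differentiated regions of this list 8 were gained (8.51%, 3.75 to 16.1), an interval that included the 4.75% of all assigned regions. Of the 25 genes of the list with any H4K5Ac region, 24% (9.36 to 45.1) had a gained one, against 8.65% of all such genes. The list was 1 of 25, and no test was made. H3K36me3 coverage moved by 10 points or more in none of its 27 genes.

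BMP and TGF-β genes had gained regions in 4 of 30 members and lost regions in 15. Of their 127 differentiated regions 6 were gained (4.72%, interval 1.75 to 10.0), near the 4.75% of all assigned regions, so these members too are a description. Bmp2, whose ligand induces osteoblast differentiation, had a single H4K5Ac region, gained, at chr2:133375393-133377194, over the promoter and 1602 bp upstream of the start, 108271 bp from the nearest undifferentiated region. It acquired H3K4me1, and it held neither factor and no H3K9Ac. Bmp6 had 3 gained and 1 lost region, and H3K4me1 regions assigned to it numbered 7 before and 15 after. Bmp5 had 1 gained and 1 lost region, and Chrd, which encodes the BMP antagonist chordin, had 1 gained region. H3K36me3 covered no more than 1.27% of any of these 4 genes in either state.

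Adipocyte marker genes had gained regions in 4 of 17 members (23.5%, interval 6.81 to 49.9), Cebpa, Klf15, Lpl and Scd1, and lost regions in 6. Of their 44 differentiated regions 4 were gained (9.09%, 2.53 to 21.7), an interval that included the 4.75% of all assigned regions. Among the 13 members with any H4K5Ac region the gene share was 30.8% (9.09 to 61.4), against 8.65% of all such genes. No test was made. The region at Lpl, the lipoprotein lipase gene, overlapped its promoter and carried H3K4me1 in both states. The region at Klf15 lay 11.5 kb upstream and acquired H3K4me1. H3K36me3 covered 0% of Cebpa, Klf15 and Lpl in both states, and 97.6% and 99.2% of Scd1, which encodes a fatty acid desaturase. No gained region fell to any of 10 haematopoietic, 11 endothelial or 26 innate immune genes. With lists of this size, shares of up to 30.8%, 28.5% and 13.2% were still within the intervals. Chondrocyte (2 of 14, Col11a2 and Sox5), muscle (1 of 17, Myf5), neural (1 of 11, Mbp) and tendon or fibroblast (1 of 11, Thy1) markers had 1 or 2 genes each. Markers of mature osteocytes had 1 of 10, Mepe.

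Over all 25 lists, 51 of 454 genes had a gained region, and 63 of their 1205 differentiated regions were gained (5.23%, interval 4.04 to 6.64), which was near the 4.75% of all assigned regions. Lost regions outnumbered gained regions in every list, 329 against 63 in all, as they did over all genes, with 8994 against 1340. Besides Msx1 and Bmp2, the listed genes with a gained region and no undifferentiated one were Il11, a cytokine gene, Selenbp1, and the cell cycle genes Cdkn1c, which encodes the inhibitor p57, and Mcm2, a replication helicase subunit. In the nuclear receptor list 6 of 65 differentiated regions were gained, 4 at Nr3c2, 1 at Rarb and 1 at Thrb. At Selenbp1 a 6198-bp region over the start acquired H3K4me1 and a C/EBPβ peak.

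H3K36me3 coverage of gene bodies was compared for the genes with a gained region. The share of each gene body inside H3K36me3 regions was taken in each state, and a difference of 10 percentage points or more was counted. Of the 1145 genes, 136 were up (11.9%, interval 10.1 to 13.9) and 68 were down (5.94%, 4.64 to 7.47), against 5.32% up and 4.42% down of all genes. Genes with no H4K5Ac region had a mean body coverage of 12.5% before, so genes that had only kept regions were also compared, with 7.83% up and 5.91% down. The gained genes exceeded these by 4.04 points up (2.19 to 6.13) and by 0.0304 points down (-1.32 to 1.64). The mean coverage before differentiation was 42.1% in the gained genes and 61.0% in the genes with only kept regions, and the part of this starting level in the difference was not tested. The 672 genes with gained and no lost region were up in 12.9% and down in 5.51%. The 215 genes with gained and no kept region were up in 6.98% (3.96 to 11.2) and down in 5.58%, so the higher share was not seen in these. Genes with lost and no gained region were up in 5.99% and down in 6.55%. At a difference of 25 points or more, 3.93% of gained genes were up and 1.75% down, against 2.69% and 1.98% of genes with only kept regions.

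**Figure D5:**
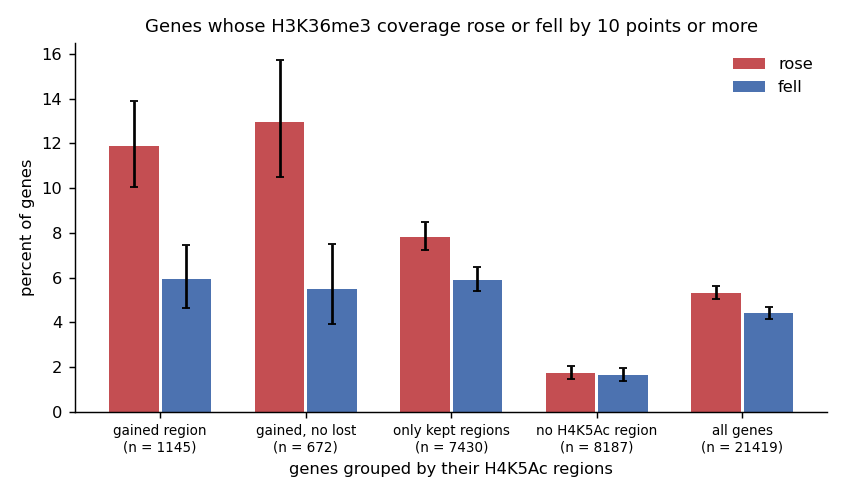
Percent of genes whose body coverage by H3K36me3 was higher (rose) or lower (fell) by at least 10 percentage points in the differentiated state, grouped by their H4K5Ac regions, with 95% Clopper-Pearson intervals. Genes with a gained region were up in 11.9% and down in 5.94%, and genes with only kept regions in 7.83% and 5.91%.

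The gained genes with the largest difference upward were Slc40a1, the gene of the iron exporter ferroportin, from 0% to 96.5%, Fam180a, from 0% to 92.0%, Glrp1, from 0% to 91.6%, and Ibsp. Pyroxd2 went from 20.5% to 96.1%, Atp13a2, a lysosomal ATPase gene, from 0% to 74.0%, and Gprc5c from 16.0% to 86.4%. Arrdc2, Dbndd2 and Sft2d2 followed with differences of 58.1, 55.7 and 54.96 points. At Atp13a2 and Dbndd2 the gained region was the only H4K5Ac region assigned in either state. A gained region did not always go with more H3K36me3: Kitl, which encodes stem cell factor and had a gained region over its promoter, went from 78.3% to 0%, and Scube3, with 3 gained regions, from 38.6% to 7.28%.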

How the data were processed

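ChIP-seq lists of 7 antibodies in 2 states of MC3T3-E1 cells were used, 14 lists in all, and the 2 input samples were not analysed here. The submitters' processing notes name Bowtie, HOMER and the mm9 build, with versions and settings not given in the sources used here. The deposited lists hold merged peaks, since the peak names record at least 2 merged peaks each, and the score of each region is the authors' own, on a scale the sources do not state. RUNX2 and C/EBPβ peaks have a score of 0 and a width of 201 bp. Scores were compared only within a list. Read depth is unknown.

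Overlap meant at least 1 bp. Chromosomes 1 to 19 were used with the NCBIM37 genome and GENCODE vM1 genes. Motifs were counted in the 1000 bp around region centres. Scripts ran in Python 3.11.15 with pandas 2.3.3, NumPy 2.4.6, SciPy 1.17.1, pysam 0.24.0 and matplotlib 3.10.9 and were tested on simulated data. Named genes were list members with a gained region, the 15 genes with most gained regions, the genes of the 10 highest-scoring and 10 widest regions and of the 10 highest-scoring regions with each factor, and the 10 largest upward differences of H3K36me3 coverage. Further genes and the E-box sequences were picked with their values in view. The members and the 25 gene lists were chosen with earlier results of these data known. Alternatives covered the overlap rule, score, width, window, promoter size, distance to the start and coverage threshold.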

Additional observations from a re-analysis of the deposited data

How the results depend on the processing

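The gained share of 4.74% was 3.17% when an undifferentiated region within 5 kb counted as a partner, 7.63% when overlap had to cover 50% of the region, and 0.445% among regions scoring above the list median. Differences from kept regions, in percentage points, depended on width and score. For promoters, -19.9 became -25.6 above the median score, -12.9 in the central 1000 bp, -14.4 with promoters of 5 kb, and changed sign to 3.66 in regions up to 2 kb and 4.22 in the lowest of 4 score groups. For H3K4me1 before, -34.7 became -15.5 above the median score, -28.1 up to 2 kb and -27.6 in the lowest score group. For H3K9Ac after, -48.4 became -46.1 for gained regions over 5 kb from undifferentiated ones, -68.8 above the median score, -38.1 in the central 1000 bp, -12.3 up to 2 kb and -8.77 in the lowest score group. For RUNX2 after, -10.6 became -5.89, -1.73, -0.377 and 0.286 above the median score, in the central 1000 bp, up to 2 kb and in the lowest score group, and for C/EBPβ after, -14.2 became 0.849, -2.33, -0.984 and -2.39. Up to 2 kb the sign changed for the RUNX (-0.481), TEAD (-0.500), ETS (0.655) and MEF2 (-0.540) motifs. The E-box difference of 13.6 was 10.3 at 45 to 50% GC. Genes with a gained region numbered 736 within 20 kb, and genes with higher H3K36me3 coverage 87 without lost regions and 45 at 25 points. Settings on the lowest score group and on GC were chosen after seeing the data. The causes were not tested. No paired analysis was possible because each antibody and state had 1 merged list. Without replicates or read counts, no difference has an error between cultures.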
